A study of Mus musculus with 2 samples.

Results

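The 10 genes Npy, Penk, Gal, Vip, Adm, Tac1, Calca, Cartpt, Adcyap1 and Nppc encode precursors of peptides known from the adrenal medulla and its nerves. They were taken by symbol from 55536 annotated genes, and all 10 were found in both libraries' tables. Total RNA was sequenced from whole adrenal glands of male B6CASTF1/J mice, an F1 hybrid of a classical laboratory strain and a strain derived from Mus castaneus, aged 25 days. Each of the 2 libraries started from 300 ng of RNA, with ribosomal RNA reduced and ERCC spike-ins added, and no treatment or engineered allele is named. There was 1 group and therefore no comparison of conditions. The biosample labels give animal 3 for replicate 1 and animal 4 for replicate 2, whereas the library labels give animal 3 for both and the donor label is shared. P-values therefore measure only how these libraries differ, and that difference may be technical.

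The adrenal medulla consists mainly of chromaffin cells, which store catecholamines in dense-core granules with granins and neuropeptides and release them together when the splanchnic nerve fires. Neuropeptides are cut from longer precursors at pairs of basic residues by prohormone convertases and trimmed by carboxypeptidase E, and many are then amidated at a terminal glycine by the enzyme encoded by Pam. The nerve fibres that enter the gland carry peptides of their own, among them PACAP, VIP, substance P and CGRP, and many of these fibres have their cell bodies outside the gland.

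Chromaffin cells were represented in both libraries. Of 26 chromaffin marker genes, 24 had at least 1 TPM (a level scaled for transcript length and relative to a fixed total) in both. The share of nuclear protein-coding genes that did so was 54.1%. The chromogranin genes Chgb and Chga stood at 571 and 560 TPM in the first library (replicate 1) and at 409 and 393 TPM in the other (replicate 2), and where a pair of levels is given below, replicate 1 comes first. Scg2, for secretogranin II, stood at 228 and 161 TPM. Dlk1, which encodes a membrane protein of chromaffin cells, stood at 194 and 126 TPM. The libraries held 34987784 and 34835107 rounded counts on annotated genes, and they differed in tissue content. Summed liver marker TPM was 30.1 in replicate 1 and 21745 in replicate 2, led by Alb and Apoa2. Summed skeletal muscle marker TPM was 1254 and 2.02, led by Acta1 and Mylpf. Summed adipocyte marker TPM was 3485 and 2736, led by Fabp4 and Car3. The RNA is from whole tissue, so fewer cells of a type and less RNA per cell cannot be told apart.

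The precursors of neuropeptide Y and of the enkephalins differ in how many peptides they carry. Npy carries 1 amidation signal, and its coding region is shown because this gene held most of the peptide precursor RNA. Npy lies at chr6:49822710-49829507 on the plus strand (mm10), and its only annotated transcript, Npy-201, has 4 exons. The coding region of 291 nt spans chr6:49823598-49829324 with introns removed and is written 5′ to 3′. Capitals mark the glycine, lysine and arginine codons of the amidation and cleavage signal.
Npy-201 coding region: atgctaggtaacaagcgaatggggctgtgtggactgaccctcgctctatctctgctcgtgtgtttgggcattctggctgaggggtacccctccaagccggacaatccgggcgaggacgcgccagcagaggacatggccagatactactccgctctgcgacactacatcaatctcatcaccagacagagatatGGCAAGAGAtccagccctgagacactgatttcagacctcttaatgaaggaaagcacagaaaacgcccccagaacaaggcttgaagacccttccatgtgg

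Penk, the enkephalin precursor gene, repeats its product, and the stretch that holds the repeats is shown for contrast with Npy. The gene lies at chr4:4133531-4138819 on the minus strand (mm10). In the 268 codons of Penk-201 there are 7 runs of enkephalin codons, 6 for Met-enkephalin and 1 for Leu-enkephalin. All 7 directly follow a pair of lysine or arginine codons, and 5 are directly followed by one. The stretch with the last 4 runs, which include the Leu-enkephalin run, is 246 nt of exon at chr4:4133848-4134093 and is written 5′ to 3′ along the gene, with the enkephalin codons in capitals.
Penk-201 coding stretch: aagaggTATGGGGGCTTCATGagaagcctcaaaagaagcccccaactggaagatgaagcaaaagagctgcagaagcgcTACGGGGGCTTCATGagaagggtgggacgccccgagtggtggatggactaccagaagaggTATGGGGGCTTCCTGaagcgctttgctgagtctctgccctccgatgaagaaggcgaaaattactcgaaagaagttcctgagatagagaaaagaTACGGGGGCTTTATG

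A glycine codon followed by a pair of lysine or arginine codons, the signal marked in Npy, was in the coding regions of 7 of the 10 genes, namely Npy, Gal, Vip, Adm, Tac1, Calca and Adcyap1. Among all 21765 nuclear coding genes it was found in 35.0%. Penk, Cartpt and Nppc had none. Pairs of lysine or arginine codons, anywhere in the coding region, numbered from 2 in Npy and Calca to 12 in Penk. A codon match describes the sequence and does not show that a site is cut in this tissue.

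Npy had the highest level of the 10 genes. It stood at 146 and 108 TPM, from 2329 and 1711 counts, with a mean of 127 TPM ± 26.9 (SD, n = 2). The 95% Poisson intervals, which cover counting error only, were 140 to 152 TPM and 103 to 113 TPM and did not overlap, replicate 1 being the higher. Npy held 82.5% and 82.4% of the summed TPM of the 10 genes, which was 177 and 131. It ranked 338 and 507 among 22015 nuclear protein-coding genes. The Npy level was 0.261 and 0.275 times that of Chga and 0.784 and 0.890 times that of Th, the gene of the rate-limiting enzyme of catecholamine synthesis.

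Gal, Penk, Adm and Cartpt followed Npy. Gal encodes the precursor of galanin and lies at chr19:3409915-3414544 on the minus strand. It stood at 13.8 and 11.3 TPM, from 323 and 262 counts (12.6 TPM ± 1.77, SD, n = 2). Within the same library Npy was 10.6 and 9.55 times as high as Gal. Penk stood at 10.01 and 5.61 TPM, from 414 and 231 counts (7.81 TPM ± 3.11, SD, n = 2), with replicate 1 clearly the higher. Adm encodes adrenomedullin, a vasodilator peptide first isolated from a tumour of chromaffin cells that is also made by endothelium, and lies at chr7:110627661-110629820 on the plus strand. It stood at 5.49 and 4.87 TPM, from 234 and 200 counts (5.18 TPM ± 0.438, SD, n = 2). Cartpt encodes the cocaine- and amphetamine-regulated transcript peptides and lies at chr13:99898489-99901091 on the minus strand. It was the lowest of the detected genes, at 1.58 and 1.10 TPM from 44 and 30 counts (1.34 TPM ± 0.34, SD, n = 2).

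The order Npy, Gal, Penk, Adm, Cartpt was the same in both libraries, but not every step exceeded the error. Gal was 1.38 and 2.02 times as high as Penk, and their Poisson intervals did not overlap within either library. Those of Gal were 12.3 to 15.4 and 9.98 to 12.8 TPM, and those of Penk 9.07 to 11.0 and 4.91 to 6.38 TPM. Across libraries, the interval of Gal in replicate 2 overlapped that of Penk in replicate 1. Penk was 1.82 times as high as Adm in replicate 1 and 1.15 times in replicate 2. In replicate 2 their Poisson intervals, 4.91 to 6.38 TPM for Penk and 4.22 to 5.60 TPM for Adm, overlapped. Adm was 3.47 and 4.43 times as high as Cartpt. Endothelial genes were well above Adm in both libraries, with Egfl7 at 64.7 and 53.7 TPM, Plvap at 60.5 and 45.1 TPM, Emcn at 36.7 and 26.3 TPM and Eng at 31.1 and 29.5 TPM. Their part in the Adm level was not tested.

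The other 5 genes had between 0 and 3 counts in each library. Vip, for vasoactive intestinal peptide (chr10:5639218-5647617, plus strand), had 3 and 2 counts, or 0.06 and 0.04 TPM, with intervals of 0.0127 to 0.179 and 0.00499 to 0.149 TPM. Tac1, for substance P and neurokinin A (chr6:7554879-7565834, plus strand), had 1 count in each library, or 0.05 TPM in both. Calca, for calcitonin and CGRP (chr7:114631478-114636357, minus strand), had 1 count in each, or 0.05 and 0.09 TPM. Adcyap1, for PACAP (chr17:93199017-93206537, plus strand), had 1 and 2 counts, or 0.02 TPM in both. Nppc, for C-type natriuretic peptide (chr1:86666291-86670571, minus strand), had 0 counts in replicate 1, which allows up to 0.0931 TPM by the limit of 3 counts used for a count of 0 (the upper end of the 95% Poisson interval is 0.115 TPM), and 1 count in replicate 2, or 0.03 TPM. The intervals of Vip, Tac1, Calca, Adcyap1 and Nppc overlapped one another in both libraries, so these genes cannot be ordered at this depth. The highest upper limit among them was 0.518 TPM, for Calca in replicate 2, which is below the lower limit of 0.742 TPM of Cartpt in that library.

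At the threshold of 1 TPM in both libraries, 5 of the 10 genes were detected, against 23.6% of all annotated genes and 54.1% of nuclear protein-coding genes. The nerve fibre genes beside them were low as well. Of 17 neuron and nerve fibre genes, 4 reached 1 TPM in both libraries. Uchl1, which chromaffin cells also express, led with 22.9 and 18.4 TPM, followed by Rbfox3, for a nuclear protein of neurons, with 1.58 and 1.71 TPM. The summed TPM of the list was 32.5 and 26.3. Chat and Slc18a3, which define cholinergic nerve endings, had 0 counts in replicate 1 and 1 count each in replicate 2.

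**Figure D1:**
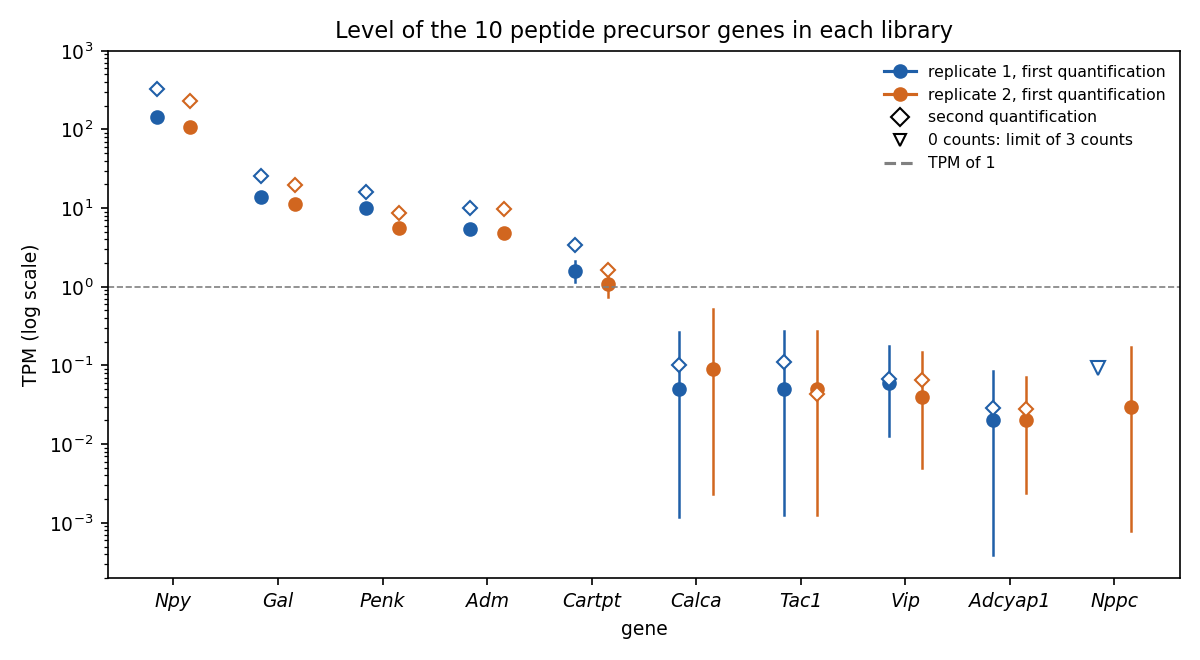
The vertical axis is TPM on a log scale and the horizontal axis lists the 10 genes by mean level. Filled points are the first quantification with 95% Poisson intervals, open diamonds are the second quantification (values at 0 are not drawn), and an open triangle is the limit of 3 counts for a gene with 0 counts. Npy stands alone at 146 and 108 TPM, 4 genes lie between 1.10 and 13.8 TPM, and 5 lie below 0.1 TPM in the first quantification.

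Few other peptide precursors reached 1 TPM in both libraries. Across the 10 genes and 54 further neuropeptide precursor genes, 9 of 64 had at least 1 TPM in both libraries, against 54.1% of nuclear protein-coding genes. Of those 9, 5 were Npy, Gal, Penk, Adm and Cartpt. Edn3, the endothelin 3 precursor, was the highest of the others at 5.94 and 4.07 TPM. By TPM it therefore stood between Adm and Cartpt in replicate 2 and just above Adm in replicate 1. The Edn3 level lay inside the Poisson interval of Adm in replicate 1 (4.81 to 6.24 TPM). In replicate 2 it lay just below that of Adm (4.22 to 5.60 TPM). No interval was computed for Edn3, so its order against Adm is not resolved. Vgf, a granin-like precursor of secretory granules, stood at 3.50 and 1.67 TPM, above Cartpt in both libraries. Nmb, the neuromedin B precursor, stood at 1.30 and 1.03 TPM. Npff, the neuropeptide FF precursor, stood at 0.61 and 1.67 TPM, and is therefore not among the 9. Gnrh1, the gonadotropin-releasing hormone precursor, stood at 1.29 and 0.32 TPM. These 2 depended on the quantification. The second quantification put Npff at 3.96 and 3.37 TPM and Gnrh1 at 3.98 and 2.45 TPM, with Cartpt at 3.44 and 1.65 TPM. Both therefore passed 1 TPM in both libraries there. Npy alone made up 74.9% and 75.2% of the summed TPM of all 64 genes.

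The levels of receptors for these peptides were read in the same libraries. Of 27 genes for receptors, receptor partners and clearance receptors, 11 had at least 1 TPM in both libraries, or a smaller share than the 54.1% of nuclear protein-coding genes. The list is wider than the detected peptides, since receptors for the peptides of all 10 genes were included. It also holds Npr1, whose main ligands come from genes outside the 10. Npr1, the guanylyl cyclase receptor of atrial and brain natriuretic peptides, led at 79.4 and 51.2 TPM. Npr2, the receptor of C-type natriuretic peptide, stood at 11.8 and 10.3 TPM, and Npr3, the clearance receptor, at 4.84 and 5.20 TPM. The Nppc precursor itself was at 0 and 1 counts.

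The subunits of the main adrenomedullin and CGRP receptors, Calcrl and the Ramp genes, were detected in both libraries. Calcrl, the shared receptor, stood at 10.4 and 7.60 TPM. Ramp2 and Ramp3, the partners that make it an adrenomedullin receptor, stood at 18.4 and 16.02 TPM and at 6.74 and 3.72 TPM. Ramp1, the partner that makes it a CGRP receptor, was lower, at 2.92 and 2.53 TPM, and Calcr, the calcitonin receptor, had 0 counts in both libraries.

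Among receptors of the nerve peptides, Adcyap1r1, the PACAP receptor through which splanchnic nerves act on chromaffin cells, stood at 11.0 and 6.51 TPM. Tacr2, the neurokinin A receptor, stood at 9.15 and 6.25 TPM, whereas Tacr1, the substance P receptor, had 1 and 0 counts. Vipr1, a receptor of VIP and PACAP, stood at 0.11 and 3.34 TPM, high only in the library with the liver transcripts. Whether those transcripts contribute to Vipr1 was not tested.

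Receptors of the detected neuropeptides covered a wide range. For neuropeptide Y, Npy2r stood at 3.17 and 2.67 TPM and Npy1r at 2.17 and 0.81 TPM. Ogfr, an opioid growth factor receptor that binds Met-enkephalin and differs in structure from the classical opioid receptors, stood at 16.1 and 13.1 TPM. The classical opioid receptor gene Oprd1 stood at 0.25 and 0.17 TPM. Among the galanin receptors Galr1 was the highest, at 0.31 and 0.16 TPM. Gpr160, a proposed receptor of the Cartpt peptide, stood at 1.12 and 0.64 TPM.

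**Figure D2:**
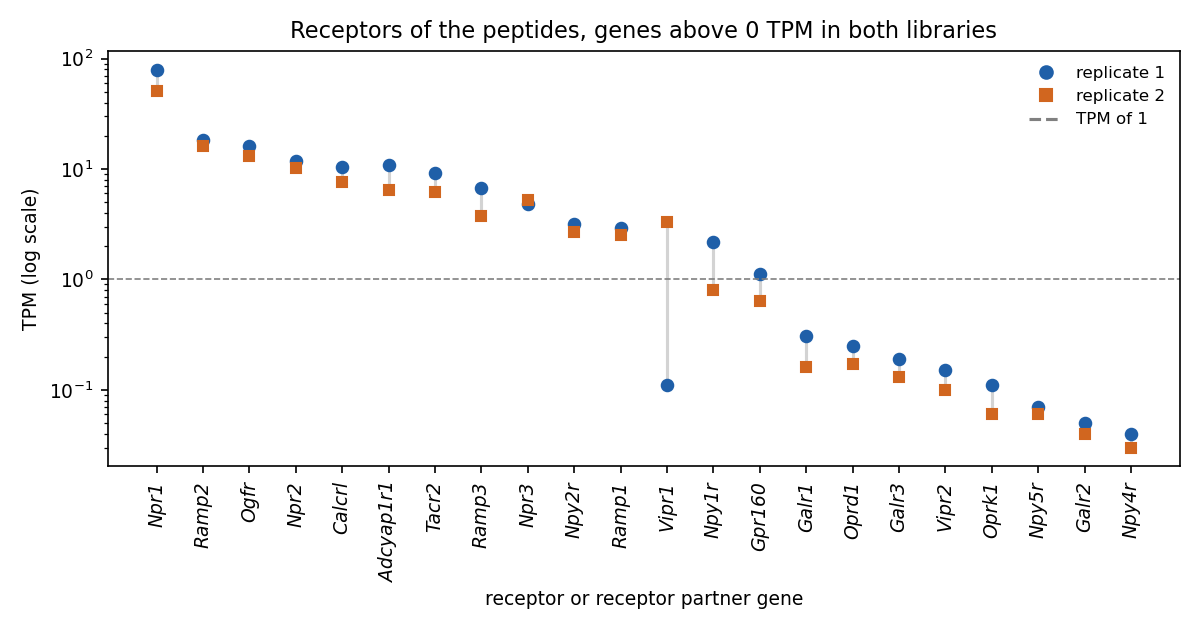
The vertical axis is TPM of the first quantification on a log scale, and the horizontal axis lists the 22 receptor or partner genes above 0 TPM in both libraries by mean level. Circles are replicate 1 and squares replicate 2, joined by a grey line. Npr1 is the highest at 79.4 and 51.2 TPM, and Vipr1 has the widest gap, at 0.11 and 3.34 TPM.

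Of 17 genes for enzymes and helper proteins of peptide processing and degradation, 16 had 1 TPM or more in both libraries, against 54.1% of nuclear protein-coding genes, and their levels covered a wide range. Cpe, for carboxypeptidase E, stood at 256 and 178 TPM. Pam, for the amidating enzyme, stood at 116 and 76.9 TPM. The prohormone convertase genes Pcsk1 and Pcsk2 were far lower, at 4.99 and 3.39 TPM and at 1.38 and 1.04 TPM. Ctsl, for cathepsin L, a lysosomal protease that is also reported in secretory granules, stood at 82.4 and 162 TPM. Ece1, for endothelin converting enzyme, which also degrades peptides, stood at 81.9 and 99.5 TPM. Cpe, Pam, Pcsk1 and Pcsk2 were each higher in replicate 1 by TPM, whereas Ctsl and Ece1 were higher in replicate 2.

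The replicates were compared on counts scaled by the TMM method, which assumes that most genes do not differ, with a two-sided exact binomial test and Benjamini-Hochberg adjustment over 19801 genes. Penk was lower in replicate 2 by a log2 ratio of -0.60 (95% interval -0.84 to -0.37, adjusted p = 1.5e-06 by the exact test). Npy was lower by a log2 ratio of -0.21 (-0.30 to -0.12, adjusted p = 3.3e-05 by the exact test). Gal had a log2 ratio of -0.06 (-0.30 to 0.18, adjusted p = 0.78 by the exact test), Adm of 0.01 (-0.27 to 0.29, adjusted p = 1 by the exact test) and Cartpt of -0.31 (-1.03 to 0.39, adjusted p = 0.6 by the exact test). Of the 5 genes with enough counts, 2 were lower in replicate 2, 0 were higher and 3 did not pass. Among all genes tested 18.4% were lower and 20.7% higher, so calls between these libraries were common. The median log2 ratio was -0.21 over the 5 genes and -0.01 over all genes tested.

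More chromaffin markers were lower than higher in replicate 2. Of 26, 15 were lower, 3 were higher and 8 did not pass, with a median log2 ratio of -0.25, and their summed TPM was 2225 and 1551. Among all genes tested 18.4% were lower and 20.7% higher. Under total counts 17 markers were lower and 2 higher, against 8524 and 2515 of all 19801 genes tested. Under spike-in totals 21 were lower and 1 higher, against 10558 and 2138. Ddc, a gene of catecholamine synthesis, went the other way, with a log2 ratio of 1.15, and was higher under all 4 scalings. All 10 cortex markers were lower, with a median of -0.66 and a summed TPM of 14532 and 7606, led by Hsd3b1 and Star. Of 8 liver markers 8 were higher, and of 8 muscle markers 8 were lower. The part of this tissue content in the Npy and Penk ratios was not tested. Set against Chga in the same library, the log2 level of Npy was -1.94 and -1.86, that of Cartpt -8.47 and -8.48, and that of Gal -5.34 and -5.12. Penk stood at -5.80 and -6.13 against Chga, and Adm at -6.67 and -6.33. These ratios depend on the gene set against. Against Pnmt, the gene of the enzyme that makes adrenaline, the log2 level was -0.29 and 0.29 for Npy, -4.16 and -3.98 for Penk and -6.82 and -6.33 for Cartpt, so that Penk was the lower in replicate 2 against Chga and the higher there against Pnmt. Npy against Th was at -0.35 and -0.17. In the second quantification Cartpt against Chga was at -7.94 and -8.44, and Cartpt rests on 44 and 30 counts. These within-library ratios have 1 value per library and no test.

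The calls for Gal and Adm depended on the scaling. Scaling by total counts moved the median log2 ratio, taken over genes whose mean level was 1 TPM or more, from -0.02 to -0.25, and scaling by spike-in totals moved it to -0.37. Of all genes tested 3641 were lower and 4097 higher under TMM, 8524 and 2515 under total counts, and 10558 and 2138 under spike-in totals. Under total counts Gal was lower too (log2 ratio -0.30, adjusted p = 0.029 by the exact test), and Adm changed sign to -0.22. Under spike-in totals 4 of the 5 genes were lower, with Gal at -0.42 (adjusted p = 0.00098 by the exact test) and Adm at -0.35 (adjusted p = 0.024 by the exact test). Npy and Penk were lower under TMM, total counts, DESeq2 size factors and spike-in totals.

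**Figure D3:**
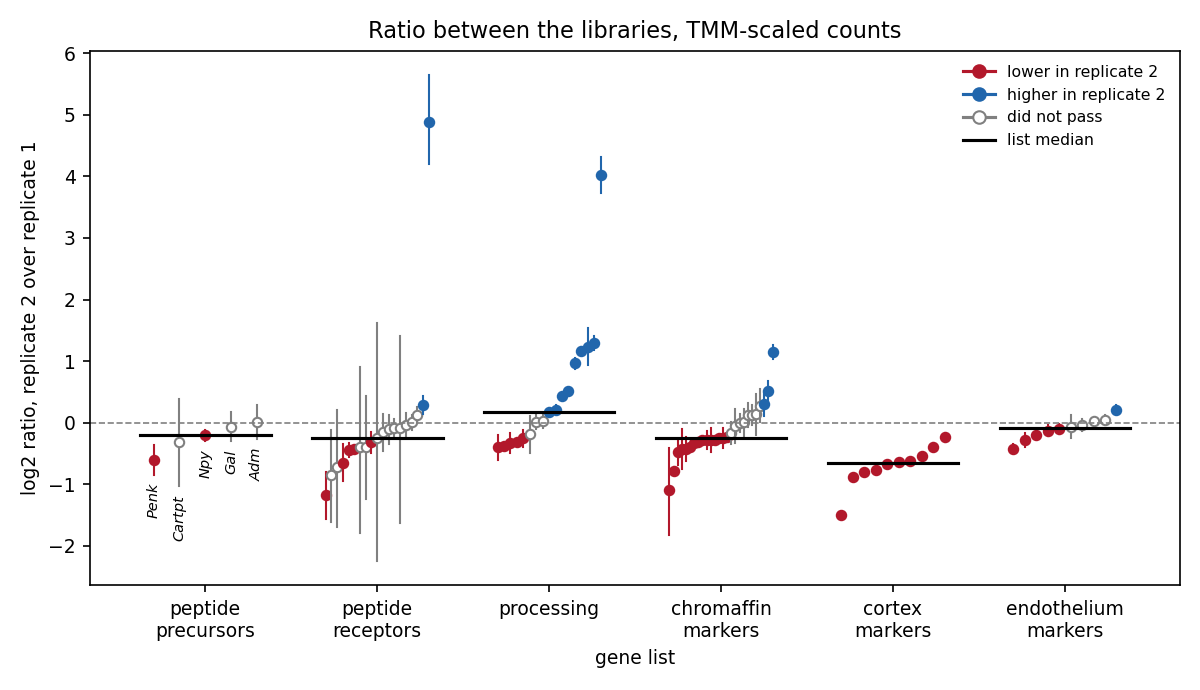
The vertical axis is the log2 ratio of replicate 2 over replicate 1 on TMM-scaled counts, and each point on the horizontal axis is a gene of the named list with at least 10 counts, with its 95% interval. Red is lower in replicate 2, blue higher, grey not passed, and black bars are list medians. Penk and Npy lie below 0 at -0.60 and -0.21, and all 10 cortex markers lie below 0.

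Receptor and processing genes were compared between the libraries in the same way, against 18.4% lower and 20.7% higher among all genes tested under TMM. Of 19 receptor genes tested, 5 were lower in replicate 2, 2 were higher and 12 did not pass (median log2 ratio -0.25). Adcyap1r1 was lower by a log2 ratio of -0.44, Npr1 of -0.42, Tacr2 of -0.32, Ramp3 of -0.65 and Npy1r of -1.17. Vipr1 was higher, with a log2 ratio of 4.88, and so was Npr3 at 0.28, although its ratio was 0.05 under total counts and -0.07 under spike-in totals and passed under neither. Of the 19, 11 were lower and 1 higher under total counts, and 13 and 1 under spike-in totals. Lower calls were common under these scalings. Of all 19801 genes tested, 8524 were lower and 2515 higher under total counts, and 10558 and 2138 under spike-in totals. Of 17 processing genes 5 were lower, 9 higher and 3 did not pass (median 0.18), whereas 8 were lower and 7 higher under total counts (median -0.06) and 10 lower and 7 higher under spike-in totals (median -0.18). The 5 lower genes were Cpe, Pam, Pcsk1, Scg5 and Pcsk1n, while Pcsk2 did not pass (log2 ratio -0.19) and Qpct, for the enzyme that makes terminal pyroglutamate, was among the higher genes (1.23). Ctsl and Ece1 were among the higher genes under all 4 scalings. Of 10 macrophage markers 8 were higher as well (7 under total counts and 6 under spike-in totals). With 2 libraries, whether genes vary together cannot be told. Of the macrophage genes with the highest levels, Cd74 was higher under all 4 scalings, and Lyz2 had a ratio of -0.06 that did not pass under TMM and was lower under total counts and spike-in totals. The part of macrophage and liver RNA in these ratios was not tested.

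The 7 Schwann and sustentacular markers had a summed TPM of 14.7 and 22.9. Under TMM 2 of them were lower in replicate 2, 1 was higher and 4 did not pass, with a median log2 ratio of -0.28. Among all genes tested 18.4% were lower and 20.7% higher. S100b stood at 9.30 and 6.30 TPM, above Adm and Cartpt in both libraries, and Cdh19 at 0.99 and 0.46 TPM. Erbb3, which liver also expresses, was the marker called higher, at 0.95 and 13.1 TPM. The higher sum in replicate 2 rests on this gene.

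The transcripts of the expressed genes were next compared. Npy-201 took all Npy counts. Of the Gal level, Gal-202 held 96.2% and 94.7%, and Gal-201 the remaining 3.78% and 5.34%. The posterior SD that the authors deposited for the split was 6.36 and 8.64 counts, against 10.2 and 11.7 counts on Gal-201, so the minor Gal transcript was poorly resolved. Of the Adm level, Adm-201 held 95.7% and 92.0%, and Adm-202, a retained intron transcript of 376 nt, held 4.29% and 8.01% from 2.23 and 3.67 counts.

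Penk and Cartpt each have a second coding transcript. Penk-201 held 80.9% and 81.3% of the Penk level and Penk-202 held 19.1% and 18.8%, from 40.7 and 22.2 counts with a posterior SD of 6.57 and 4.49 counts. The annotated coding region of Penk-202 has 178 codons and 3 Met-enkephalin runs, but the annotation marks its 3′ end as not found, so the precursor it encodes is not known in full. Cartpt-201 held 79.2% and 81.4% of the Cartpt level and Cartpt-202 held 20.9% and 18.6%, from 12.8 and 7.90 counts with a posterior SD of 3.47 and 3.18 counts. The long form Cartpt-201 has 129 codons and the short form Cartpt-202 has 116. They differ by 39 coding bases at chr13:99900041-99900079 (mm10, minus strand), which encode 13 further residues. The junction is shown for both forms, with 21 bases on either side, 5′ to 3′ along the gene and the extra bases in capitals.
Cartpt-201: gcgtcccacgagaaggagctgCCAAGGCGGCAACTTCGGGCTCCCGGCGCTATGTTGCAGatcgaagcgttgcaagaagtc
Cartpt-202: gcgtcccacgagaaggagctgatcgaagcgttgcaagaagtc

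The second quantification, made by the authors from the same reads, gave other shares for these transcripts. It put 0% of Penk on Penk-202 in both libraries, so the share of the short Penk transcript rests on the first quantification. It put 42.3% and 57.6% of Cartpt on Cartpt-202, so in replicate 2 the long form was the larger share in the first quantification and the short form in the second. Adm-202 held 20.9% and 28.2% there, on 5.21 and 7 counts. Gal-201 held 2.19% and 5.02%, close to its share in the first. The single counts of the low genes also fell on different transcripts. Tac1 had its 1 count on the same transcript in both libraries in the first quantification, and on a different transcript in each library in the second. Calca had its 1 count on Calca-207 in replicate 1 and on Calca-204 in replicate 2 in the first quantification. No statement about calcitonin or CGRP transcripts can be made from 1 count.

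**Figure D4:**
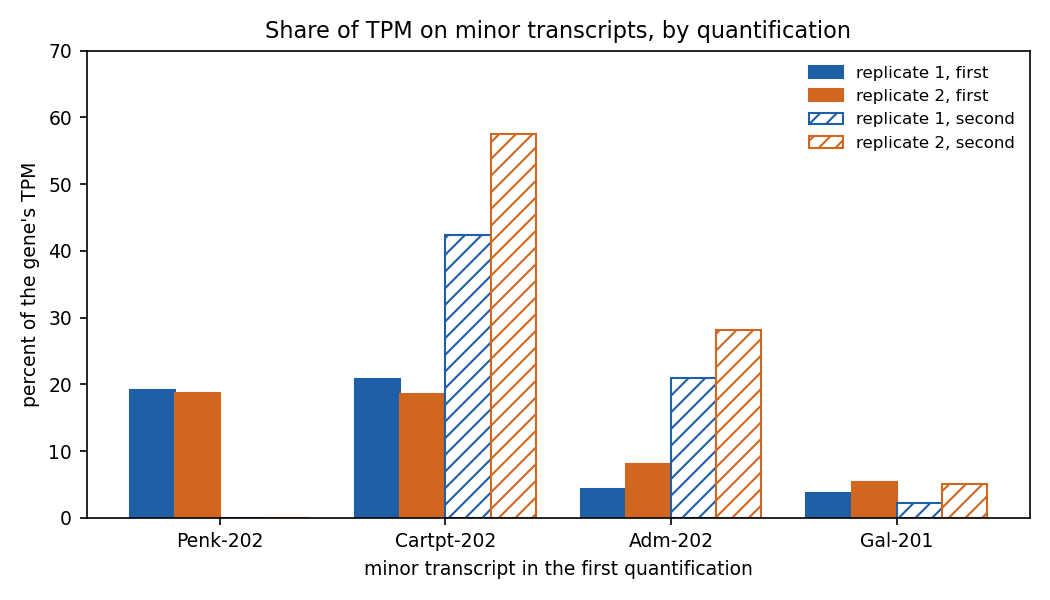
The vertical axis is the percent of a gene's TPM, from 0, and the horizontal axis lists the minor transcript of Penk, Cartpt, Adm and Gal. Filled bars are the first quantification and hatched bars the second, blue for replicate 1 and orange for replicate 2. Penk-202 is at 19.1% and 18.8% in the first and at 0% in the second, and Cartpt-202 goes from 20.9% and 18.6% to 42.3% and 57.6%.

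At the gene level the second quantification kept 5 of the 10 genes at 1 TPM or more in both libraries. Npy stood there at 327 and 233 TPM, Gal at 25.9 and 19.5 TPM, Penk at 16.02 and 8.59 TPM, Adm at 10.02 and 9.81 TPM and Cartpt at 3.44 and 1.65 TPM. In replicate 2 Penk was therefore 0.876 times the Adm level, which reverses their order. Nuclear coding genes were mostly higher on this scale, with a median ratio of 1.73 and 1.66 to the first, and such genes held 32.8% and 35.5% of all TPM in the first and 60.8% and 62.6% in the second. Against that median gene Npy was a further 0.38 log2 units higher in the second quantification, Adm 0.18, Cartpt 0.09 and Gal 0.09, and Penk was at -0.11. Npy-201, with 566 nt, has the shortest length of the main transcripts of these 5 genes. Its effective length was 467 nt in the first quantification and 240 and 238 nt in the second, for 1967 and 1424 counts in the second. The counts of Npy in the second quantification were lower than in the first, and its TPM was higher.

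Overlapping annotation touched Penk and Adm only. A830012C17Rik, on the strand opposite to Penk (chr4:4138321-4188703), had 3 and 0 counts. Gm28863, an antisense gene opposite to Adm (chr7:110626281-110639358), had 0 counts in both. The library kit marks strand, but whether the counting used it is not given in the sources used here. The separation of reads of such partners from those of Penk and Adm was therefore not tested. The deposited posterior SD of the gene counts, a signal of read sharing, was 0 for Penk and Adm in both libraries.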

How the data were processed

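Expression was measured in 2 libraries of 1 group. Per the deposited text files, reads were assigned to mm10 with annotation M21 in a first quantification (from a transcriptome alignment) and a second (from reads and an index). The tools are not named in the labels or files. Per the file headers, the authors' tables hold expected counts, TPM and percent of gene TPM per transcript, with the deposited posterior SD of counts as a signal of read sharing, and estimated counts and TPM in the second, which were summed per gene here. Symbols came from the transcript names in the files. Expected counts were rounded, genes with at least 10 counts in total were tested by a two-sided exact binomial test against TMM-scaled library sizes (edgeR 4.0.16, factors 1.08 and 0.923), and adjusted by Benjamini-Hochberg at 0.05. With 1 library on each side the test compares libraries, not conditions. Poisson intervals (95%) and floors of 3 counts cover counting error only. The test was tried on simulated data that held counting error only. That simulation cannot show how the test behaves when the libraries differ in tissue content. Alternatives were DESeq2 1.42.0 size factors, total counts, spike-in totals, other thresholds and the second quantification. Entries that name no gene were left out.

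Members and lists were chosen with earlier results of these data known. Named were all 10 genes, the highest 4 genes by mean TPM of each companion list (2 for cortex, liver, muscle, adipocyte, macrophage and neuron lists), receptors with a mean of at least 5 TPM, overlapping genes, and transcripts with at least 10% of a gene's TPM. A gene that the rule takes is not reported here. Chosen after their values were seen were Th, Pnmt, Qpct, Chat, Slc18a3, Pcsk1, Pcsk2, Scg5, Pcsk1n, Npy1r, Npy2r, Ramp1, Calcr, Tacr1, Vipr1, Oprd1, Galr1, Gpr160, Gal-201, Adm-202 and the Tac1 and Calca transcripts. Ddc and Gnrh1 were also chosen in that way.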

Additional observations from a re-analysis of the deposited data

How the results depend on the processing

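With a TPM threshold of 2 in place of 1, 4 of the 10 genes were detected, and 5 were detected at 0.5, over nuclear coding genes, in the second quantification and in each library alone. The summed TPM of the 10 genes, 154 as a mean, was 328 in the second quantification and 455 when TPM was rescaled over nuclear coding genes, and ran from 131 to 177 when either replicate was left out. The log2 ratio of Penk to Npy, -4.07 as a mean, was -4.56 in the second quantification and ran from -4.27 to -3.87 when either replicate was left out. Lower in replicate 2 were 2 genes, 3 under total counts and 4 under spike-in totals. The Adm ratio of 0.01 reversed to -0.22 under total counts and -0.35 under spike-in totals. Against the median gene with a mean of at least 10 TPM, the excess of the second quantification was 0.37 for Npy and -0.12 for Penk. No cause of these shifts was tested. No paired analysis was possible because there is 1 group. Genes at 0 to 3 counts are limited by depth and have no fold or test.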
